A study of Mus musculus with 9 samples.

Results

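A set of 40 genes that mark astrocytes or their reactive state was followed in hippocampal tissue of C57BL/6J mice. They were chosen by name: 29 are expressed by resting astrocytes and 11 are raised when astrocytes react to injury or inflammation. All 40 were among the 57010 genes of the deposited table, and 39 had enough counts to be tested. Timp1, with 1 to 10 counts in each library, did not. Sham mice had a spinal nerve exposed without ligation and were given solvent. SNL mice had that spinal nerve ligated, a model of neuropathic pain, and were given solvent. In the CBD group ligation was followed by cannabidiol, a non-intoxicating cannabinoid, by intraperitoneal injection at 5 mg/kg for 15 days. Each group had 3 libraries. The labels give neither age nor sex. They also do not state that each library is a different mouse, so the spread behind every p-value is that among these libraries and could be technical.

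Astrocytes clear glutamate and potassium from around synapses, convert glutamate to glutamine, move water through channels on their endfeet, and are joined to each other by gap junctions. After injury or inflammation they enlarge their intermediate filaments (Gfap and vimentin) and switch on secreted and acute-phase proteins, in part through the cytokine-activated transcription factor STAT3. In the spinal cord such reactive astrocytes are well known after nerve injury. In whole tissue, fewer cells of a type and less RNA per cell cannot be told apart.

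Libraries summed to between 16972620 and 20470546 expected counts. The tissue held in each library differed. Summed markers of the hypothalamus (in CPM, counts scaled to a common library total) reached 368.6 for CBD 1, 283.4 for SNL 1 and 63.4 for SNL 2, and no more than 5.99 for any other library. Summed markers of thalamus and habenula ran from 332 to 464.3 in Sham, from 540.7 to 1310.4 in SNL and from 482.6 to 655 in CBD. Summed markers of oligodendrocytes ran from 8102 to 10976 in Sham, from 9934 to 13992 in SNL and from 7733 to 8989 in CBD. Those of CA1 neurons ran from 522.9 to 898.1 in Sham, from 327.9 to 506.7 in SNL and from 334.2 to 631.3 in CBD.

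Resting identity genes were abundant and steady, while most reactive genes were low. Together the 29 identity genes made up 11427.5 to 12299 CPM in Sham, 10935 to 11856 in SNL and 11365 to 11545 in CBD, and these ranges overlapped. The 11 reactive genes summed to 227.7 to 297.2 CPM in Sham, 206.8 to 257.4 in SNL and 208.8 to 263.6 in CBD, ranges which also overlapped. On a scale that corrects for transcript length, CPM per kilobase of the longest annotated transcript, the mean Sham level was highest for Apoe, the main lipid carrier of the brain, at 1186. Glul, the enzyme that makes glutamine, followed at 601, then Clu, a secreted chaperone, at 499, and Ndrg2, a cytoplasmic protein enriched in astrocytes, at 386. Bmpr1b, a receptor for bone morphogenetic proteins, was the lowest identity gene at 3.47. Of the reactive genes the highest per kilobase were Vim, an intermediate filament protein, at 25.3, Serpina3n, a secreted protease inhibitor, at 18.7, and C4b, a complement component, at 15.9. Among the 10 tested reactive genes, 5 averaged below 10 CPM in Sham: Osmr, the receptor subunit for oncostatin M, Ggta1, a sugar transferase, Cd44, a hyaluronan receptor, Steap4, a metalloreductase, and Lcn2, an iron-siderophore binding protein.

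Within groups, the coefficient of variation was 2.71% for Glul, the steadiest member, and 4.59% for Ntsr2, a neurotensin receptor confined to astrocytes in brain. Its median was 12% over the identity genes and 18.7% over the tested reactive genes. Lcn2 had the highest value of the tested members, 109.1%, and Steap4 and Cd44 followed at 63% and 34.5%. Among identity genes the most variable were Mt3, Mt2 and S100b, at 27.1%, 25.9% and 25.3%.

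**Figure D1:**
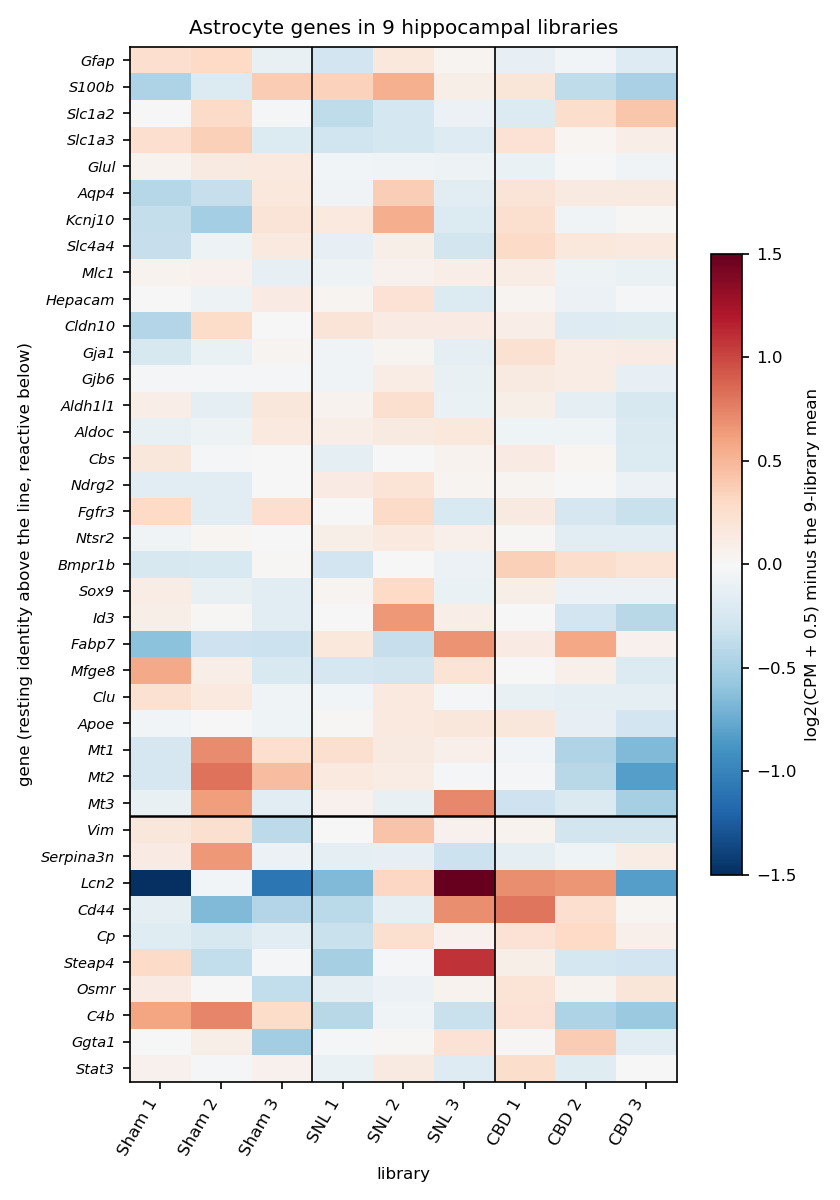
Each of the 39 tested members (rows) in each of the 9 libraries (columns), coloured by log2(CPM + 0.5) minus that gene's mean over the libraries. Resting identity genes are above the black line and reactive genes below it. Most rows are pale, the Lcn2 and Steap4 rows are darkest red in SNL 3, and Mt1 and Mt2 are darkest red in Sham 2 and darkest blue in CBD 3.

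The effect of spinal nerve ligation is addressed first, by setting SNL against Sham. No shared shift of the astrocyte genes was seen. The reactive genes went in both directions, with C4b and Serpina3n lower in every SNL library than in every Sham library. The glutamate transporter gene Slc1a3 averaged 384.1 CPM in SNL and 509.2 CPM in Sham. The astrocyte and radial glia lipid carrier gene Fabp7 averaged 32.2 CPM in SNL and 20.6 CPM in Sham.

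The edgeR test called 0 of the 39 members at an adjusted p under 0.05, and 0 of all 17967 genes. At an unadjusted p under 0.05 there were 6 members, which is 15.4% of 39 beside 13.8% of all genes. Of these 3 were higher and 3 lower, and over all genes 5.83% were higher and 7.96% lower. The groups did not overlap for 7 members, or 17.9% beside 17.7% of all genes. Of these 3 were higher and 4 lower (7.94% and 9.81% of all genes). The shares of 15.4% and 17.9% are near those of the whole table. DESeq2 called 1 member, C4b, and 365 genes (2.03%), and limma voom with sample weights called 0 members and 1 gene. Of 29 identity genes 18 had a fold change above 0 (median log2 fold change 0.03), and of 10 reactive genes 7 did (median 0.17). Over all genes 51.6% were above 0, with a median of 0.01.

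C4b, a precursor in the classical complement pathway that reactive astrocytes, microglia and oligodendrocytes make, had the smallest p of the members. It stood at 88.9, 97.6 and 70.8 CPM in the Sham libraries 1, 2 and 3, and at 43.9, 56.3 and 46.6 CPM in SNL. The lowest Sham library was above the highest SNL library. Its log2 fold change was -0.81 (SE 0.21, edgeR adjusted p 0.224). DESeq2 gave -0.80 with an adjusted p of 0.0207. With any 1 of the 9 libraries left out the edgeR fold change lay between -0.92 and -0.71. Its near-identical neighbour C4a was listed at 1.94 to 4.23 CPM in Sham, beside 2.68 to 2.87 CPM in SNL, and how reads were shared between the 2 genes is uncertain. Summed microglial markers stood at 358.5 to 442.5 CPM in Sham, beside 335.8 to 422.4 CPM in SNL. Those of oligodendrocytes stood at 8102 to 10976 CPM in Sham, beside 9934 to 13992 CPM in SNL. The part of either in the result was not tested.

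Serpina3n stood at 35, 50.8 and 30.2 CPM in Sham and at 29.1, 29.4 and 25.5 CPM in SNL. Sham 3 was just above SNL 2, and Sham 2 was the highest library. The log2 fold change was -0.47 (SE 0.18, edgeR adjusted p 0.296), and it was -0.22 without Sham 2. Lcn2, which astrocytes and endothelium release in inflammation, had 0, 23 and 6 counts in Sham and 10, 31 and 201 counts in SNL. These correspond to 0, 1.16 and 0.306 CPM in Sham and 0.583, 1.63 and 10.7 CPM in SNL. Only SNL 3 was far above the others, and SNL 1 lay below Sham 2. The fitted log2 fold change of 3.12 (SE 1.17, edgeR adjusted p 0.291) became 1.17 without SNL 3 and 4.76 without Sham 2.

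The same library, SNL 3, held the highest Steap4 (1.70 CPM, beside 0.233 to 0.764 in the other 8 libraries). It also held the highest Fabp7, and a Cd44 of 7.53 CPM that was second to CBD 1. Summed endothelial and pericyte markers in SNL 3 were 419.5 CPM, the lowest of the SNL libraries (492 in SNL 1 and 559.7 in SNL 2), and summed fibroblast and meningeal markers were 110.9 CPM, between those of SNL 1 (82.6) and SNL 2 (161.3). The part of either in the values of SNL 3 was not tested. The other reactive members did not separate the groups. Vim averaged 55.4 CPM ± 12.5 (SD, n = 3) in Sham and 61.1 CPM ± 10.3 in SNL. Stat3, the transcription factor itself, averaged 56.6 CPM ± 2.11 and 53.6 CPM ± 6.32. Cp, the copper oxidase ceruloplasmin, averaged 15.4 CPM ± 0.459 and 17.7 CPM ± 3.55. Osmr stood between 4.53 and 6.98 CPM and Ggta1 between 3.31 and 6.60 CPM over all 9 libraries.

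**Figure D2:**
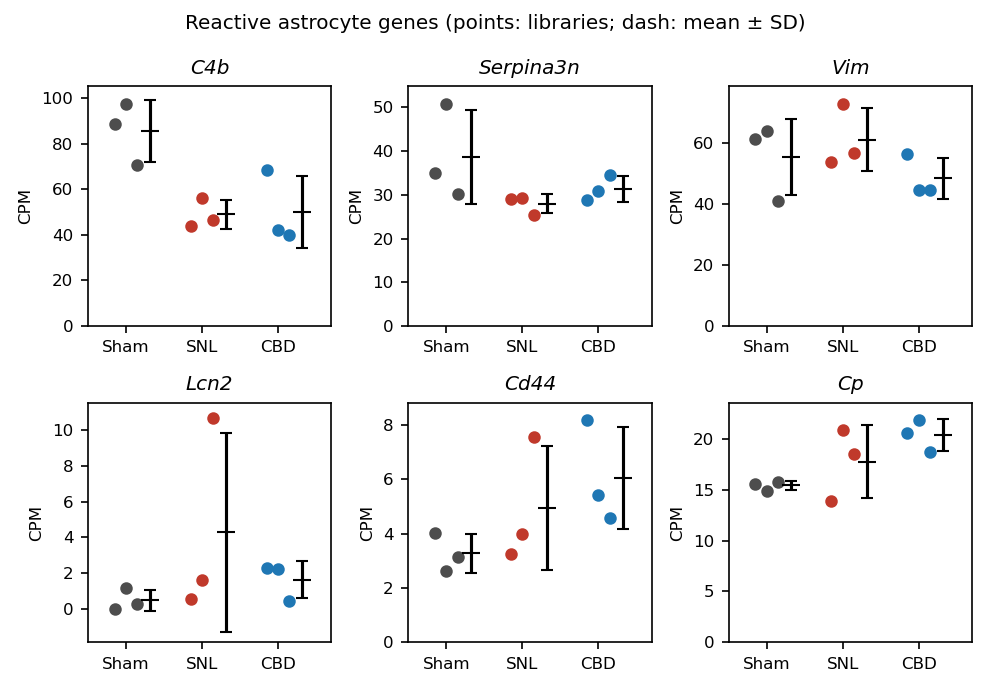
Levels of 6 reactive genes in CPM on linear axes, with 1 point per library (replicates 1 to 3 from left to right) and the mean ± SD of each group beside the points. C4b in Sham (70.8 to 97.6) lies above SNL (43.9 to 56.3), and Lcn2 is set apart by SNL 3 at 10.7.

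Gfap, the intermediate filament that defines the reactive state in most tissues, is abundant in resting hippocampal astrocytes too. It stood at 441.1, 454 and 342.1 CPM in the Sham libraries, at 301.3, 412.8 and 380.8 in those of SNL and at 339.6, 358 and 323 in those of CBD. The groups overlapped for SNL against Sham and for CBD against SNL, and against Sham the highest CBD library lay above the lowest Sham library.

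The genes of glutamate handling were lower in SNL on average. Slc1a3, the transporter GLAST, stood at 544.7, 584.7 and 398.2 CPM in Sham and at 371.9, 381.6 and 398.8 CPM in SNL. SNL 3 just exceeded Sham 3, so the groups overlapped narrowly. The log2 fold change was -0.41 (SE 0.14, edgeR adjusted p 0.271). Slc1a2, the transporter GLT-1 that takes up most forebrain glutamate, stood at 2246, 2734 and 2224 CPM in Sham and at 1729.7, 1870.2 and 2112 CPM in SNL. Every SNL library was below every Sham library, and its unadjusted p missed 0.05. Glul stood at 1614, 1705 and 1711 CPM in Sham and at 1502, 1491 and 1472 CPM in SNL, again without overlap and with a p above 0.05.

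The channels, membrane proteins and gap junction genes overlapped between Sham and SNL. Aqp4, the endfoot water channel, stood at 125.9, 133.6 and 189.6 CPM in the Sham libraries, at 162.8, 218.3 and 150.7 in those of SNL and at 193.5, 186.5 and 186.7 in those of CBD. Kcnj10, the potassium channel Kir4.1, stood at 240, 215 and 350.7 CPM in Sham and at 339.5, 448.2 and 265.5 CPM in SNL. The connexin gene Gja1 averaged 238.1 CPM ± 23.2 in Sham and 244.9 CPM ± 15.6 in SNL. Gjb6, the other astrocyte connexin, averaged 55.2 CPM ± 0.362 and 55.4 CPM ± 4.51. Mlc1 and Hepacam, partners in an endfoot adhesion complex, averaged 194.9 and 132.2 CPM in Sham and 198.7 and 133 CPM in SNL.

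The identity genes higher in SNL at an unadjusted p under 0.05 were Ndrg2 and Fabp7. Ndrg2 stood at 778.2, 782.9 and 875.1 CPM in Sham and at 953.4, 1006 and 901.4 CPM in SNL, without overlap (log2 fold change 0.23, SE 0.10, edgeR adjusted p 0.354). Fabp7 stood at 17.8, 22.1 and 22.1 CPM in Sham and at 30.8, 21.6 and 44.4 CPM in SNL, where SNL 2 lay within the Sham range. Its log2 fold change was 0.64 (SE 0.24, edgeR adjusted p 0.291), and 0.34 without SNL 3. Apoe and Ntsr2 also did not overlap between the groups, at 1629 to 1717 against 1732 to 1929 CPM for Apoe and 151.6 to 159.7 against 165 to 173.3 CPM for Ntsr2, both higher in SNL with a p above 0.05. The remaining identity genes overlapped between Sham and SNL. Among them, over all 9 libraries, Aldh1l1, a folate enzyme widely used as an astrocyte marker, stood at 62.4 to 87.6 CPM, and Cbs, an enzyme of hydrogen sulfide synthesis, at 31.6 to 41.2 CPM. The growth factor receptor gene Fgfr3 stood at 105.6 to 163.5 CPM, the glial transcription factor gene Sox9 at 23.6 to 32.7 CPM and Mfge8, a secreted bridge to phagocytes, at 107.7 to 195 CPM.

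Ligated mice with and without cannabidiol were then compared, CBD against SNL. Slc1a2, Slc1a3 and Bmpr1b were higher in CBD on average, and the metallothionein genes Mt1, Mt2 and Mt3 were lower in every CBD library than in every SNL library. S100b, a calcium-binding protein, Id3, an inhibitor of helix-loop-helix transcription factors, and Aldoc, the brain aldolase, were also lower on average. No reactive gene had an unadjusted p under 0.05 here.

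The edgeR test called 0 members and 0 of 17967 genes, and DESeq2 called 0 members and 157 genes (0.874%). Limma voom called 3 of the 39 members, S100b, Slc1a2 and Bmpr1b, beside 1132 of the 17967 genes. By edgeR, 8 members had an unadjusted p under 0.05, which is 20.5% of 39 beside 13.7% of all genes. All 8 were identity genes, 3 higher and 5 lower, and over all genes 6.50% were higher and 7.20% lower. The groups did not overlap for 12 members, or 30.8% beside 19.3% of all genes. Of these 4 were higher and 8 lower (9.18% and 10.1% of all genes). Of the identity genes 11 of 29 had a fold change above 0 (median -0.12), as did 7 of 10 reactive genes (median 0.06), beside 49.9% of all genes with a median of 0. Across 17642 genes, which are not independent replicates, fold changes for CBD against SNL had a Spearman rho of -0.45 with the GC content of the transcript and of 0.37 with its length. For CBD against Sham these were -0.57 and 0.16, and for SNL against Sham -0.15 and -0.20. With offsets that remove both trends the identity median of CBD against SNL was -0.01.

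Mt1, Mt2 and Mt3 encode small cysteine-rich proteins that bind zinc and copper. Mt1 and Mt2 are induced by metals, through the transcription factor MTF1, and by glucocorticoids, whereas Mt3 is expressed mainly in the nervous system and lacks such induction. The 3 genes lie on the same strand of chromosome 8 within 26.5 kb between the starts of Mt3 and Mt1. Because every CBD library was below every SNL library for each of the 3, the 250 bases before each RefSeq start (build GRCm38.p6, plus strand) are shown, with matches to the core of the metal response element in capitals. The core was searched as TGCACNC and TGCGCNC on both strands, and these patterns do not overlap each other.
Mt1 (chr8:94178839-94179088): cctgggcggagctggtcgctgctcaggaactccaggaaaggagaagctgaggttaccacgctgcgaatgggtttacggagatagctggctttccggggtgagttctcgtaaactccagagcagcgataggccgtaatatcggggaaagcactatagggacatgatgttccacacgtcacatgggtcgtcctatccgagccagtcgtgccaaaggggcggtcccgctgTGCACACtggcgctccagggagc
Mt2 (chr8:94172368-94172617): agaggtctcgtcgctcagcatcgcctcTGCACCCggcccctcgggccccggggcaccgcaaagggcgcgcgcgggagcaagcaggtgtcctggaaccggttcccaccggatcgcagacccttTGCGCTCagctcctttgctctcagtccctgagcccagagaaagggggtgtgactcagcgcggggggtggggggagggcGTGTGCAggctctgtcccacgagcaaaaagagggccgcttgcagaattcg
Mt3 (chr8:94152357-94152606): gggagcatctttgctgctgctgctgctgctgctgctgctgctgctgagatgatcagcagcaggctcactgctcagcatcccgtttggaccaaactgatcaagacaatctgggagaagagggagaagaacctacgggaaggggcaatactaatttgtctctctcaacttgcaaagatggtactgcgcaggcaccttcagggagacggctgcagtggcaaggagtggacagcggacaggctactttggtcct
The Mt1 window held 1 match, the Mt2 window 3 and the Mt3 window 0. At least 1 match was held by 21.4% of 32851 RefSeq promoter windows of that length, and by 7 of the 36 members with an entry. A match is a description of the sequence. The windows end at the RefSeq start used and hold no bases after it, so the counts are not the number of elements of a gene. The windows also do not reach elements that lie farther away.

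Mt1 stood at 170.7, 159.6 and 152.6 CPM in SNL and at 140.2, 105.8 and 91.5 CPM in CBD. Every CBD library was below every SNL library. The log2 fold change was -0.52 (SE 0.22, edgeR adjusted p 0.352), and -0.29 with the GC and length offsets. Mt2 stood at 86.5, 84.4 and 76.8 CPM in SNL and at 76.6, 58.5 and 43.8 CPM in CBD, so CBD 1 lay just below SNL 3, and its p was above 0.05. Mt3 stood at 120.3, 106.5 and 190 CPM in SNL and at 92.8, 99.2 and 81.7 CPM in CBD. SNL 3 was far above the other libraries of its group. The Mt3 log2 fold change of -0.61 (SE 0.25, edgeR adjusted p 0.340) was -0.31 without SNL 3 and -0.02 with the offsets, and -1.07 without the 3 libraries that held hypothalamic transcripts, which leaves SNL 3 as the only SNL library.

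In Sham the metallothioneins were widely spread. Mt1 stood at 121.3, 236.3 and 172.3 CPM, Mt2 at 65.5, 137.3 and 108 CPM, and Mt3 at 107, 178.5 and 103 CPM. Sham 2 was the highest Sham library for all 3 genes, and for Mt1 and Mt2 Sham 1 was below every SNL library. A list of 16 glucocorticoid-induced genes summed to 868.1 to 899.1 CPM in Sham, 498.9 to 590 CPM in SNL and 531.4 to 616.3 CPM in CBD, with 15 of the 16 below 0 in SNL against Sham and 15 of the 16 below 0 in CBD against Sham. Its part in the metallothionein values was not tested.

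**Figure D3:**
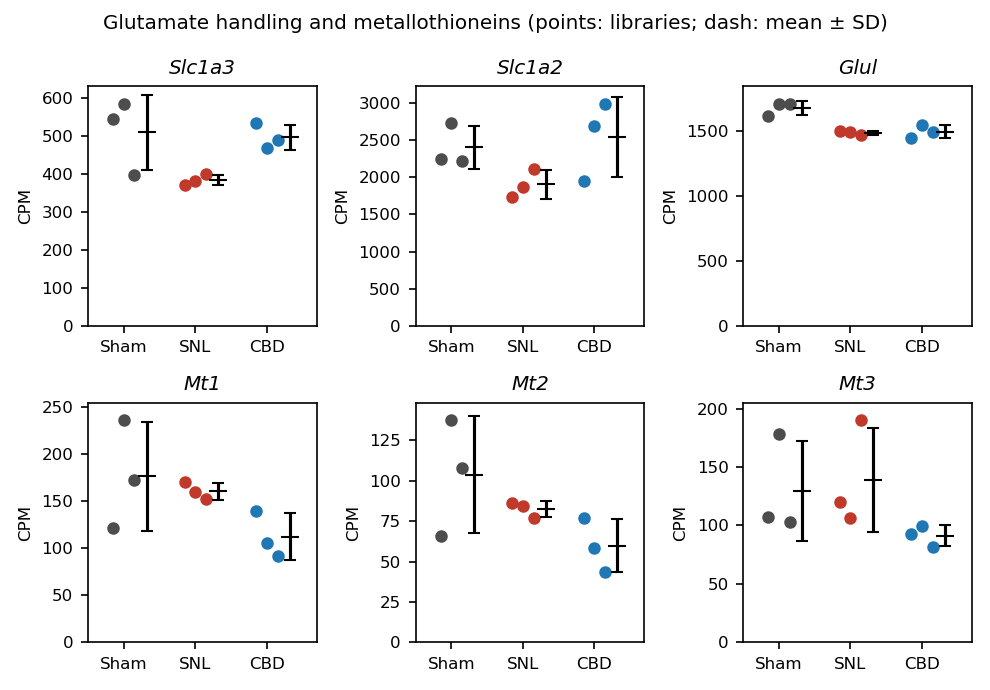
Levels of 3 genes of glutamate handling (top) and 3 metallothionein genes (bottom) in CPM on linear axes from 0, with 1 point per library (replicates 1 to 3 from left to right) and the mean ± SD of each group beside the points. Slc1a3 is lower in all SNL libraries (371.9 to 398.8) than in all CBD libraries (467.7 to 533), and Mt1 in all CBD libraries (91.5 to 140.2) is below SNL (152.6 to 170.7).

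Slc1a3 stood at 533, 467.7 and 489.6 CPM in CBD, each above all SNL libraries and inside the Sham range (log2 fold change against SNL 0.37, SE 0.14, edgeR adjusted p 0.321). Slc1a2 stood at 1947, 2689 and 2989 CPM in CBD, where CBD 1 lay within the SNL range (0.42, SE 0.17, edgeR adjusted p 0.334), and its fold change was 0.14 with the offsets. Glul did not follow the transporters: it stood at 1448, 1546 and 1490.1 CPM in CBD, beside 1472 to 1502 CPM in SNL. The SNL libraries enter both comparisons, so a low value there shows in each. In CBD 1, whose Slc1a2 was lowest of its group, the CA1 marker sum was also lowest of its group (334.2 CPM beside 574.7 and 631.3), and its part in the result was not tested.

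Bmpr1b had the smallest p of the members in this comparison. It stood at 16.7, 20.5 and 19.3 CPM in SNL and at 26.4, 24.8 and 23.8 CPM in CBD, without overlap. The log2 fold change was 0.41 (SE 0.12, edgeR adjusted p 0.306) and 0.18 with the offsets. Id3 stood at 29.7, 46.9 and 31.9 CPM in SNL and at 29.8, 24.3 and 22.3 CPM in CBD. SNL 2 was the outlying high library, and the log2 fold change of -0.51 (SE 0.18, edgeR adjusted p 0.312) was -0.28 without it and -0.25 with the offsets. SNL 2 also held the highest summed endothelial markers of the 9 libraries (559.7 CPM). Endothelium expresses Id3 as well, and its part in the result was not tested.

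S100b stood at 142, 162.8 and 118.8 CPM in SNL and at 127.3, 86.1 and 80 CPM in CBD (log2 fold change -0.53, SE 0.24, edgeR adjusted p 0.360). CBD 1 lay within the SNL range. Oligodendrocytes express S100b too, and their markers summed to 9934 to 13992 CPM in SNL and 7733 to 8989 CPM in CBD, which was not tested as a part of the result. Aldoc stood at 1020.1, 1049 and 1068 CPM in SNL and at 913.8, 916.5 and 823 CPM in CBD, without overlap (-0.24, SE 0.11, edgeR adjusted p 0.361). Among members with a p above 0.05, Gja1 and the bicarbonate transporter gene Slc4a4 were higher in every CBD library than in every SNL library. Clu, Ndrg2, Ntsr2 and the claudin gene Cldn10 were lower in every CBD library.

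In the reactive genes, C4b stood at 68.3, 42.3 and 39.9 CPM in CBD, with CBD 1 above and the others below every SNL library. Serpina3n stood at 28.8, 30.8 and 34.7 CPM, Vim at 56.2, 44.5 and 44.6 CPM and Lcn2 at 2.27, 2.22 and 0.463 CPM. All 4 ranges overlapped with those of SNL.

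CBD was last set against Sham, with the same Sham libraries as in the first comparison. C4b, Mt1, Mt2 and Clu were lower in CBD on average, and Bmpr1b, Fabp7, Gja1, Cd44 and Cp were higher. Resting and reactive genes stood on both sides.

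The edgeR test called 0 members and 0 of 17967 genes, and DESeq2 called 1 member, C4b, and 384 genes (2.14%). Limma voom called 5 of the 39 members, Bmpr1b, Fabp7, Mt1, Mt2 and C4b, beside 1051 of the 17967 genes. By edgeR, 9 members had an unadjusted p under 0.05, which is 23.1% of 39 beside 16.3% of all genes. Of these 5 were higher and 4 lower, and over all genes 7.41% were higher and 8.87% lower. The groups did not overlap for 9 members, or 23.1% beside 21.7%, of which 5 were higher and 4 lower (10.6% and 11.1% of all genes). Of the identity genes 10 of 29 had a fold change above 0 (median -0.06), as did 6 of 10 reactive genes (median 0.12), beside 50.1% of all genes with a median of 0.

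C4b was below every Sham library in all CBD libraries, although CBD 1 (68.3 CPM) came close to Sham 3 (70.8 CPM). The log2 fold change was -0.77 (SE 0.21, edgeR adjusted p 0.213), and the DESeq2 adjusted p was 0.0282.

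Bmpr1b was higher in all CBD libraries than in all Sham libraries, which stood at 17.4, 17.5 and 20.8 CPM (log2 fold change 0.43, SE 0.12, edgeR adjusted p 0.213, and 0.22 with the offsets). Fabp7 stood at 30.1, 41.3 and 28.9 CPM in CBD, all above Sham (0.70, SE 0.24, edgeR adjusted p 0.228). Gja1 stood at 297.1, 275.1 and 276.6 CPM in CBD and at 215.2, 237.6 and 261.5 CPM in Sham, without overlap (0.25, SE 0.11, edgeR adjusted p 0.284, and 0.13 with the offsets). Cp stood at 20.5, 21.8 and 18.7 CPM in CBD and at 15.5, 14.9 and 15.8 CPM in Sham, without overlap (0.40, SE 0.15, edgeR adjusted p 0.245, and 0.18 with the offsets). Choroid plexus also makes Cp, and its summed markers ran from 139.5 to 1294 CPM in Sham and from 1151 to 1875 CPM in CBD, with their part in the result not tested.

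Cd44 stood at 8.17, 5.41 and 4.57 CPM in CBD and at 4.02, 2.63 and 3.16 CPM in Sham, without overlap (log2 fold change 0.89, SE 0.34, edgeR adjusted p 0.252). Mt1 had a log2 fold change of -0.65 (SE 0.22, edgeR adjusted p 0.228), which was -0.39 without Sham 2, and Mt2 one of -0.80 (SE 0.25, edgeR adjusted p 0.218), which was -0.51 with the offsets. For both genes Sham 1 lay inside the CBD range. Clu stood at 980.7, 922.4 and 805.8 CPM in Sham and at 775.3, 754 and 751.7 CPM in CBD (-0.25, SE 0.11, edgeR adjusted p 0.301), and its fold change was -0.06 with the offsets. Glul and Mt3, with a p above 0.05, were also lower in every CBD library than in every Sham library.

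**Figure D4:**
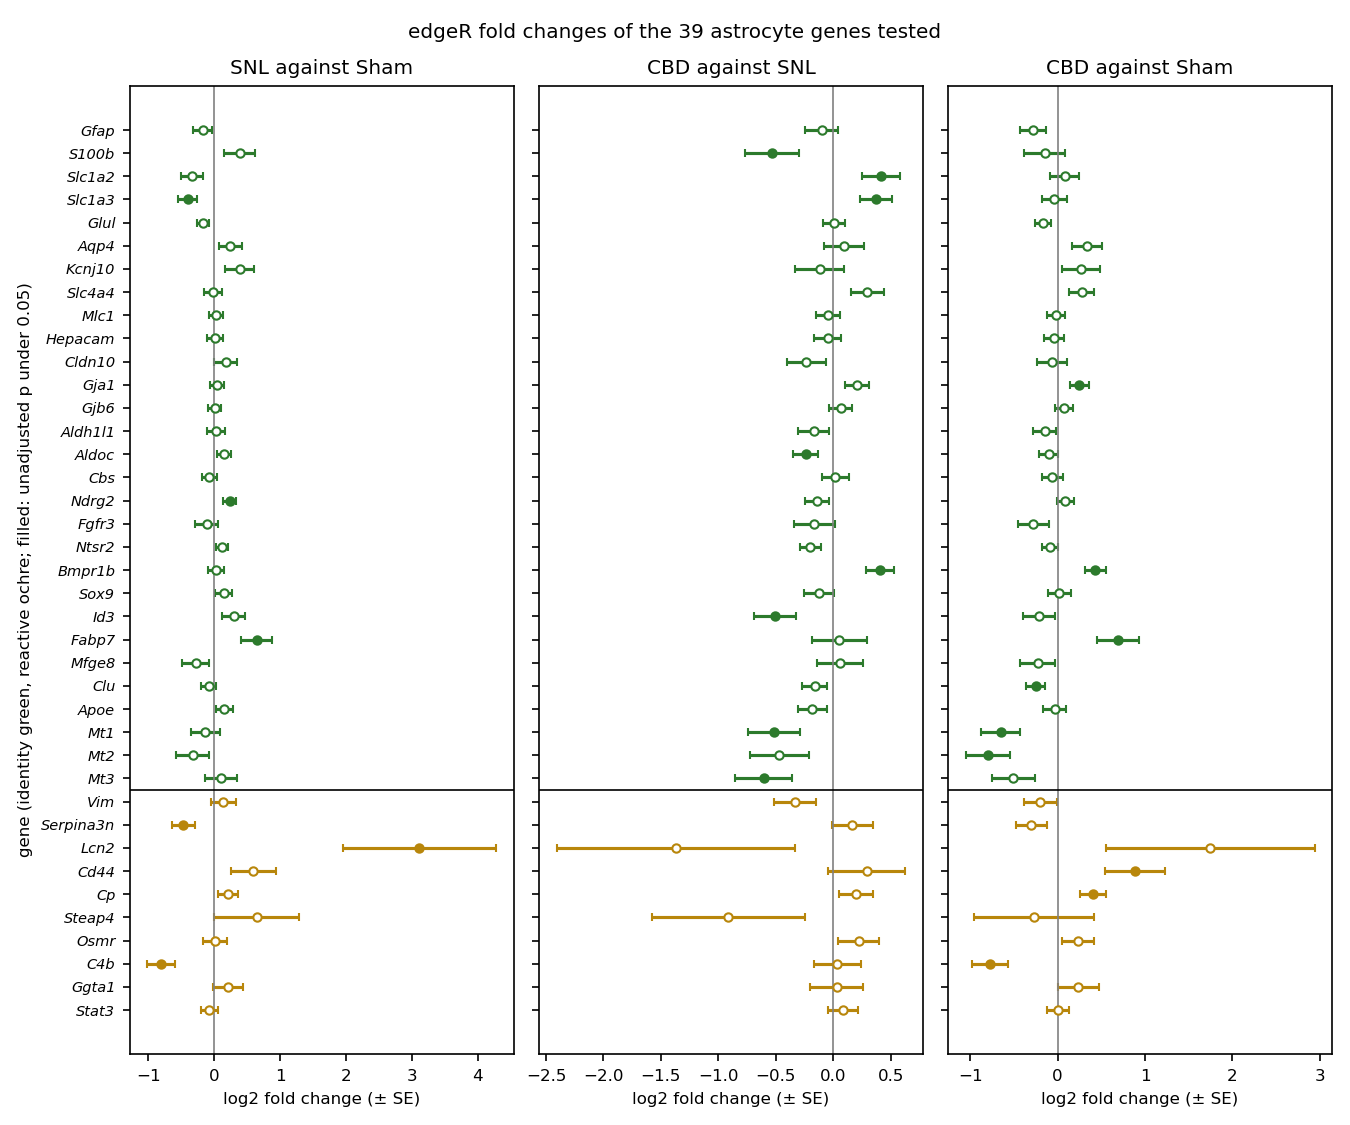
Log2 fold change ± SE by edgeR for the 39 tested members in the 3 comparisons, with identity genes in green above the line and reactive genes in ochre below it, and filled points for an unadjusted p under 0.05. The horizontal scales differ between panels, the points lie on both sides of 0 in every panel, and C4b is filled on the lower side in both comparisons with Sham.

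The same fit held 40 further astrocyte genes that are not members, and all were tested. In SNL against Sham 25 of 40 had a fold change above 0 (median 0.10), with 4 higher and 4 lower at an unadjusted p under 0.05, or 20% beside 13.8% of all genes. In CBD against SNL 17 of 40 were above 0 (median -0.05), with 1 higher and 4 lower, or 12.5% beside 13.7%. In CBD against Sham 19 of 40 were above 0 (median -0.03), with 3 higher and 4 lower, or 17.5% beside 16.3%. By edgeR 0 of the 40 were called in any comparison, and by DESeq2 1 was, Lgr6, in SNL against Sham (adjusted p 0.0255). Lgr6, a receptor of the R-spondin family of Wnt enhancers, stood at 5.76, 4.95 and 4.28 CPM in Sham, and all 3 SNL libraries were higher, at 8.45, 10.2 and 7.11 CPM. Its log2 fold change was 0.78 (SE 0.19, edgeR adjusted p 0.220), and 0.52 without the 3 libraries with hypothalamic transcripts. Scara3 had the next smallest p of the list there and was lower in SNL (-0.63, SE 0.18, edgeR adjusted p 0.234). In CBD against SNL the smallest p values of the list were those of Tst (-0.53, SE 0.14) and Prex2 (0.59, SE 0.17), both at an edgeR adjusted p of 0.306. With the offsets these fold changes were -0.20 and 0.24. Gpr37l1, a receptor of astrocytes and oligodendrocyte precursors, stood at 246.4, 259.8 and 259.5 CPM in the Sham libraries, at 238.7, 317.3 and 234.7 in those of SNL and at 229.9, 183.1 and 176.9 in those of CBD, where every library was below all others of the series. Its log2 fold change was -0.42 (SE 0.14, edgeR adjusted p 0.311) against SNL and -0.38 (SE 0.14, edgeR adjusted p 0.251) against Sham, and -0.22 and -0.16 with the offsets. Without SNL 2 it was -0.27 against SNL.

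Genes often used to split reactive astrocytes into a neurotoxic (A1) and a protective (A2) state were also followed. In SNL against Sham 5 of 11 tested A1 genes and 6 of 10 tested A2 genes had a fold change above 0 (medians -0.16 and 0.13). In CBD against SNL these were 3 of 11 and 4 of 10 (medians -0.12 and -0.17), and in CBD against Sham 5 of 11 and 5 of 10 (medians -0.17 and -0.004). At an unadjusted edgeR p under 0.05 there were 2, 3 and 2 A1 genes in these comparisons, in order (18.2%, 27.3% and 18.2%). For the A2 genes these counts were 1, 1 and 0 (10%, 10% and 0%). The shares over all genes were 13.8%, 13.7% and 16.3%. C3, the complement gene most often used for the A1 state, stood at 1.88 to 3.99 CPM in Sham, 3.21 to 3.62 in SNL and 1.86 to 3.35 in CBD. H2-D1, a class I antigen presentation gene on the A1 list, stood at 75.3, 100.3 and 83.7 CPM in Sham and at 67.4, 56.3 and 46.3 CPM in CBD, without overlap (log2 fold change -0.61, SE 0.16, edgeR adjusted p 0.213, and -0.43 with the offsets). Fkbp5, on the same list, is a glucocorticoid-induced gene, and averaged 72.5 CPM ± 16.3 in Sham, 35.5 CPM ± 4.71 in SNL and 46.7 CPM ± 2.99 in CBD. DESeq2 called Fkbp5 in both comparisons with Sham and H2-D1 in CBD against Sham. Srgn, also on the A1 list, was higher in SNL than in Sham (log2 fold change 0.60, SE 0.17, edgeR adjusted p 0.234). In CBD against SNL the fold changes were -0.42 for Srgn, -0.39 for H2-D1 and 0.40 for Fkbp5. Of the A2 genes, Ptgs2 was lower in SNL against Sham (-0.87) and Cd14 was lower in CBD against SNL (-0.78).

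Of 11 tested genes of a further list raised in both states, 9 had a fold change above 0 in SNL against Sham (median 0.23), 3 in CBD against SNL (median -0.11) and 7 in CBD against Sham (median 0.11). In SNL against Sham Nes, Hspb1 (log2 fold change 0.86) and Maob (0.34) had an unadjusted edgeR p under 0.05, all higher. This was 27.3% of the list beside 13.8% of all genes. In CBD against SNL there were 0. In CBD against Sham there were 2, Maob (0.33) and Thbs1 (0.68), or 18.2% beside 16.3%. Nes, the intermediate filament nestin, which endothelium also expresses, stood at 16.1, 11.3 and 14.8 CPM in Sham and at 22.1, 30.2 and 18.8 CPM in SNL, without overlap (log2 fold change 0.75, SE 0.20, edgeR adjusted p 0.226), while summed endothelial and pericyte markers were 307.2 to 367.1 CPM in Sham and 419.5 to 559.7 CPM in SNL. Their part in the result was not tested. Without the 3 libraries with hypothalamic transcripts the SNL against Sham fold changes of Nes, Hspb1 and Maob were 0.43, 0.35 and 0.09. DESeq2 called Nes in SNL against Sham.

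The cytokine pathway that feeds Stat3 showed no common direction. Of its 14 tested genes 8 had a fold change above 0 in SNL against Sham (median 0.01), 7 in CBD against SNL (median -0.02) and 4 in CBD against Sham (median -0.07). Il6, the founding ligand, had at most 0.151 CPM in any library. Socs3, the feedback inhibitor that STAT3 induces, stood at 1.77 to 2.65 CPM in Sham, 1.92 to 3.05 CPM in SNL and 1.60 to 2.87 CPM in CBD. Jak1, a kinase of the receptor complex, stood at 148.8, 158.2 and 154.4 CPM in the Sham libraries, at 125.9, 122.2 and 129.3 in those of SNL and at 141.2, 159.5 and 167.3 in those of CBD, and the SNL range lay below both others. Its log2 fold change was -0.29 (SE 0.09, edgeR adjusted p 0.261) for SNL against Sham and 0.31 (SE 0.09, edgeR adjusted p 0.306) for CBD against SNL, with the SNL libraries shared by both. With the offsets the value against SNL was 0.18.

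Astrocytes of the diencephalon (thalamus and hypothalamus) and of the telencephalon (hippocampus and cortex) differ in expression. The former are known for Agt, angiotensinogen, and Slc6a11, a GABA transporter. The 7 diencephalic markers summed to 465.1, 391.8 and 868.2 CPM in the Sham libraries, to 953, 997.8 and 642.3 in those of SNL and to 1119.5, 594.7 and 523 in those of CBD. Sham 3, SNL 1, SNL 2 and CBD 1 were thus the highest, and all 7 markers had a fold change above 0 in SNL against Sham (median 0.47) with 0 at an unadjusted p under 0.05.

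A few members set the same 4 libraries apart, and the share of all genes that do so was not counted. Kcnj10 and S100b were each highest in those 4 libraries, at 339.5 to 448.2 CPM and 127.3 to 162.8 CPM, beside 215 to 311.8 CPM and 80 to 118.8 CPM in the other 5. So was Hepacam, at 134.1 to 151.9 CPM beside 113.1 to 129.9 CPM. Slc1a2 was lowest in SNL 1, SNL 2 and CBD 1, and in Sham it was lowest in Sham 3. Slc1a3 did not follow it: Sham 3, SNL 1 and SNL 2 were low at 371.9 to 398.2 CPM, but so was SNL 3 at 398.8 CPM, and CBD 1, the library with the highest diencephalic sum, stood at 533 CPM. This ordering crosses the groups, and its part in the comparisons was not tested. Without SNL 1, SNL 2 and CBD 1 the fold change of C4b against Sham was -0.87 in SNL and -1.05 in CBD, that of Slc1a3 in SNL was -0.34, and those of Mt1 and Mt2 in CBD against Sham were -0.83 and -1.01. In that fit SNL 3 is the only SNL library and is assumed to vary like the other groups.

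**Figure D5:**
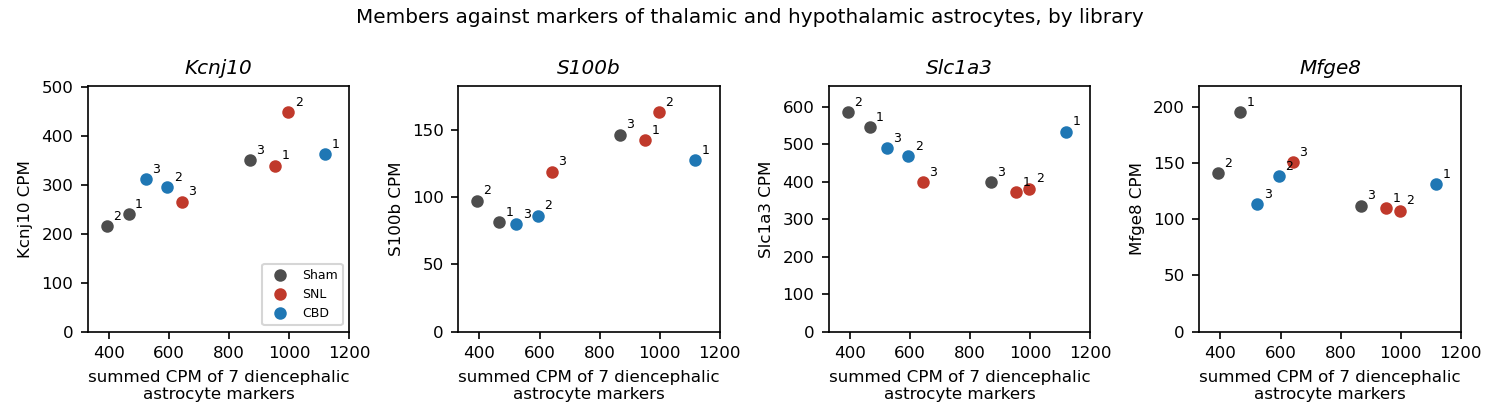
Levels of 4 members in CPM (vertical axes from 0) against the summed CPM of 7 markers of diencephalic astrocytes (horizontal axis), 1 point per library, coloured by group and numbered by replicate. Kcnj10 and S100b are highest in the 4 libraries with sums from 868.2 to 1119.5, while Slc1a3 in CBD 1 (533) stands apart from the other 3 of them (371.9 to 398.2).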

How the data were processed

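Hippocampal RNA-seq of 9 libraries was read from a single deposited table. Its values are expected counts per gene, estimated by RSEM against GRCm39 per the submitters' processing notes. The RSEM version, the aligner, the annotation and read filters were not given in sources used here. Libraries were made with a SMARTER mRNA-seq kit from TRIzol RNA, per the labels' protocols. Counts were rounded. edgeR (4.0.16, R 4.3.3) kept 17967 genes by filterByExpr, scaled libraries by TMM, and fitted 1 factor of 3 groups (6 residual degrees of freedom) with the quasi-likelihood F test and Benjamini-Hochberg adjustment over all genes, at a threshold of 0.05. Each SE was taken as the log2 fold change over root F. CPM values are rounded counts over the TMM-adjusted library total. The model was also run on counts simulated from its own fitted spread. The tissue differences between the libraries were not simulated, so that run does not show how the test performs on these data.

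The members and lists were chosen with earlier results of these data known. Fold changes are printed for members at an unadjusted p under 0.05, and for up to 4 such genes of each further list. C3, Il6 and Socs3 are named for their roles, outside that rule and after their values were seen. Transcript lengths and GC content came from GENCODE M21 and promoters from RefSeq, both of the older build GRCm38, and 36 of 40 members matched a promoter. No library repeated another: chi-square per gene was at least 6.15, for CBD 2 against CBD 3. The next closest pair, Sham 3 and CBD 1, stood at 15.2, and the highest value was 68.6. CBD 2 and CBD 3 were thus more alike than any other pair, and the labels do not state that they are different mice. Alternatives were DESeq2 (1.42.0), limma (3.58.1) voom, other filters and scaling, each library left out, and, chosen after seeing the data, offsets for GC content and length and leaving out the 3 libraries with hypothalamic transcripts.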

Additional observations from a re-analysis of the deposited data

How the results depend on the processing

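The 61 fold changes at an unadjusted p under 0.05 that were recomputed kept their direction in every alternative run. Levels and fold changes of other named genes were not recomputed. With the edgeR quasi-likelihood test 0 genes were called in each comparison. Without a filter on low counts the calls were 253 for SNL against Sham, 1 for CBD against SNL and 56 for CBD against Sham, and 1 member, C4b, was called in the first. The DESeq2 Wald test called 365, 157 and 384 genes, with 1 member, C4b, in the first and 1 in the third. Limma voom called 1, 1132 and 1051 of 17967 genes, with 3 of the 39 members in the second and 5 in the third. On the 6 libraries of CBD and Sham alone 1 gene was called, and the reactive median was 0.24, as it also was with at least 1 CPM in 3 libraries. At an adjusted p under 0.1 there were 2 genes for SNL against Sham. Without the 3 libraries with hypothalamic transcripts 1, 2 and 20 genes were called. With single libraries left out, 0 to 8, 0 to 2 and 0 to 17 genes were called (most without CBD 1), and 0 members. The identity median then ran from -0.042 (without SNL 2) to 0.098 (without Sham 3) for SNL against Sham, from -0.179 to -0.028 (without SNL 2) for CBD against SNL and from -0.136 (without CBD 1) to -0.011 for CBD against Sham. Offsets for GC and length gave -0.007 for CBD against SNL and 0.009 for CBD against Sham. The reactive median of CBD against SNL was -0.134 without the hypothalamic libraries and -0.025 without CBD 1. The cause of these shifts was not tested.

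The replicate number as a block (replicate block) called 0 genes and 0 members in each comparison. Only 2 of the 9 same-numbered pairs of libraries had a correlation of deviations over 0.1, and 0 of the 9 libraries correlated best with its own number, so the numbers were not taken to pair samples.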
